A study of Mus musculus with 20 samples.

Results

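A set of 9 genes that write, erase and read cytosine methylation in DNA was followed through the adult mouse hippocampus after gestational exposure to nano-sized particulate matter (nPM). The 9 genes were Dnmt1, Dnmt3a, Dnmt3b, Tet1, Tet2, Tet3, Uhrf1, Mbd1 and Mbd2, found by their symbol among the 48709 genes of the deposited count table. All 9 had enough reads to be tested, in a set of 19797 genes. RNA of the right hippocampus came from 20 young adult C57BL/6 mice (C57BL/6J in the methods), with 5 each of control female, nPM female, control male and nPM male. The dams of the nPM groups inhaled nPM 5 h a day on 3 days a week from gestational day 2, and the dams of the control groups (Ctrl) breathed filtered air. The concentration is given as 300 in both the labels and the methods, but in mg/m3 in the first and in μg/m3 in the second. The animals were exposed only before birth, as offspring of treated dams. They came from 5 litters per exposure group, and the labels do not tie a sample to its litter. The females were 17.71 to 18.29 weeks old and the males 18.57 to 19.14 weeks old. Sex and age therefore cannot be told apart in these samples. The methods describe injections of the thymidine analog EdU for a study of male offspring but also write of all animals as injected, so whether the females received them is not clear.

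A cell marks a cytosine that precedes a guanine (a CpG site) with a methyl group. DNMT3A and DNMT3B place the mark on unmethylated DNA, while DNMT1 copies it onto the new strand at replication, guided there by UHRF1. The TET enzymes oxidize the methyl group step by step, which leads to its loss through base excision repair, and MBD1 and MBD2 bind methylated CpG sites and recruit repressor complexes. Neurons no longer divide but keep DNMT3A and TET activity, and the methylome of the hippocampus is known to change with neuronal activity. The readout here was RNA and not methylation.

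Total counts per sample were between 19092067 and 38663408. Markers of dentate granule neurons and of pyramidal neurons were all tested, 8 of 8 in each list, and the summed level of the first list was 300.1 to 665 CPM (counts scaled to a common library size) over the 20 samples. The libraries differed in tissue from outside the hippocampus. The summed level of 10 choroid plexus markers was 36 to 8516 CPM and exceeded 1000 CPM in 7 samples (nPM female 1 and 5, control male 2, 4 and 5, and nPM male 2 and 3). The summed level of 8 striatal markers was 524 CPM in nPM female 1 and 133 to 187 CPM in the other samples. Blood markers summed to 42.9, 30.0 and 56.8 CPM in control male 1, nPM male 1 and nPM male 2, and to at most 6.57 CPM elsewhere. In bulk tissue, fewer cells of a type cannot be told apart from less RNA per cell.

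The promoters of these genes differ in the very dinucleotide that their products act on. RefSeq (GRCm38.p6, the build of the deposited gene positions) lists 12 promoters for Dnmt1, Dnmt3a, Dnmt3b, the 3 Tet genes and Uhrf1, each measured here as the 300 bases from 250 before to 50 after a start site. Over all 32851 mouse promoters the median was 7 CpG sites. The Tet2 promoter held 57, a number that 0.152% of promoters reach. Its sequence, at chr3:133544341-133544640 on the minus strand, is shown because it was the most CpG-rich of the 12, with each CpG in capitals.

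Tet2: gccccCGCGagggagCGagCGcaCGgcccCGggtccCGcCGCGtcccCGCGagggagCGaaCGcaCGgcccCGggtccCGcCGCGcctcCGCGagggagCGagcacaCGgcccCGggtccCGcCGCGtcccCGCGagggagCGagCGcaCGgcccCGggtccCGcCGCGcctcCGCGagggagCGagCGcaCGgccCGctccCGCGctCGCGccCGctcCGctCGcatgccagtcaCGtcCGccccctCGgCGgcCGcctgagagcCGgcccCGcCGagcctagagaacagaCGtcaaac

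The first of the 3 Dnmt1 promoters was at the other end, with 2 CpG sites, a number that 85.9% of promoters reach. It lies at chr9:20959839-20960138 on the minus strand, and its start is the one at the 5′ end of the deposited Dnmt1 gene.

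Dnmt1, the first promoter: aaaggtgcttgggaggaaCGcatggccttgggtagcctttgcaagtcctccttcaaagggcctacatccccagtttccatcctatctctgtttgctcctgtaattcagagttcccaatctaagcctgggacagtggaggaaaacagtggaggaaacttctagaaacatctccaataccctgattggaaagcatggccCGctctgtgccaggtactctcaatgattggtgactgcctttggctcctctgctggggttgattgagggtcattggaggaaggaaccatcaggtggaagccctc

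The third Dnmt1 promoter and the second Uhrf1 promoter, which serve partners in copying the mark, each held 33 CpG sites, a number that 8.56% of promoters reach. They are shown because both also hold a match to the letters TTTCGCGC or TTTGGCGC, searched on both strands as the usual letters of an E2F site (E2F factors drive genes of DNA replication). Of all promoters, 0.813% hold such a match, and of the 12 promoters these 2 did. The capitals below mark the matches, which start at bases 32 and 284 of the Dnmt1 sequence and at base 66 of the Uhrf1 sequence and do not overlap each other. The Dnmt1 sequence lies at chr9:20952574-20952873 on the minus strand and the Uhrf1 sequence at chr17:56304063-56304362 on the plus strand. A match is a description of letters and not of a bound site.

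Dnmt1, the third promoter: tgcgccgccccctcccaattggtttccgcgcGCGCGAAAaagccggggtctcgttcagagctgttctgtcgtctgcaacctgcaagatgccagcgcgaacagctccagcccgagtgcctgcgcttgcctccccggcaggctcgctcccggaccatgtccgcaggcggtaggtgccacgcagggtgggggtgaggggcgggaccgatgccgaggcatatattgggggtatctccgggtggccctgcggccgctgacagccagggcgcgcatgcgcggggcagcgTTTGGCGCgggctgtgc

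Uhrf1, the second promoter: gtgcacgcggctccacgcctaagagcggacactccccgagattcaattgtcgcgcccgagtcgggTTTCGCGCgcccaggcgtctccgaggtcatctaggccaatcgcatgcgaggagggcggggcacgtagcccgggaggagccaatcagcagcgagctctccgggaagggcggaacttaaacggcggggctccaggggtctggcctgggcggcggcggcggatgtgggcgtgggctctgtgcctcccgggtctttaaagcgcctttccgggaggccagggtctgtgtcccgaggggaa

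The remaining promoters held 46, 47 and 18 CpG sites (Dnmt3a), 30 (Dnmt3b), 17 (Tet1), 22 (Tet3), 12 (the second of Dnmt1) and 12 (the first of Uhrf1). The counts were made per gene and merge all isoforms, so the use of one promoter over another was not measured.

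Per kilobase of exon, the readers and the maintenance methyltransferase stood highest. This order depends on the length used, the deposited length of each gene. Ranked by CPM, which is not per length, Dnmt3a, Tet2 and Tet3 came first. Mbd2 had a geometric mean of 9.90 RPKM (reads per kilobase of exon, scaled to the total counts of the sample) over the 20 samples, Mbd1 of 9.30 and Dnmt1 of 7.73. Mbd2 exceeded Mbd1 in 12 of 20 samples, so this neighboring pair did not separate, while Mbd1 exceeded Dnmt1 and Dnmt1 exceeded Dnmt3a in all 20. The de novo methyltransferase Dnmt3a followed at 4.84 RPKM, Tet2 at 4.50 and Tet3 at 3.40 RPKM. Dnmt3a exceeded Tet2 in 17 samples and Tet2 exceeded Tet3 in 20. Tet1 was at 1.91 RPKM, below Tet3 in 19 of 20 samples.

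The last 2 genes in the order stood apart, with Tet1 above Uhrf1 by a mean of 3.22 log2 units. Uhrf1 was at 0.205 RPKM and Dnmt3b at 0.185 RPKM, and Uhrf1 exceeded Dnmt3b in 13 of 20 samples. They rested on few reads, with 6 to 52 counts per sample for Uhrf1 and 14 to 52 for Dnmt3b. Tet1 exceeded Uhrf1 in all 20 samples.

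**Figure D1:**
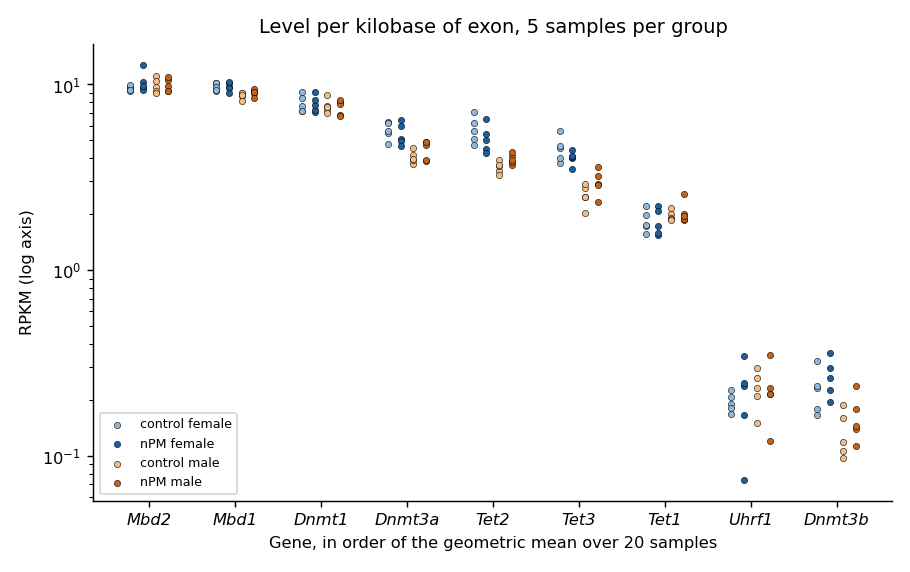
Level per kilobase of exon (RPKM, log axis) of each gene in every sample, colored by group, in the order of the geometric mean over 20 samples. Mbd2 at 9.90 and Mbd1 at 9.30 RPKM stand at the top, and Uhrf1 at 0.205 and Dnmt3b at 0.185 RPKM stand apart at the bottom.

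Exposure to nPM left no member past the threshold of the study, an unadjusted p below 0.005 by limma-voom, in any comparison. With both sexes together and sex as a covariate, 0 of 9 genes passed at 0.005, where 0.141% of all tested genes did, and 0 of 9 at 0.05, where 2.10% did. In males, 0 of 9 passed at either level, against 0.207% and 4.28% of all genes. In females, 0 of 9 passed at either level, against 0.0859% and 2.00%. The interaction of sex and nPM likewise gave 0 of 9, against 0.217% and 3.79%. After Benjamini-Hochberg adjustment over all genes, limma called 0 genes of any kind below 0.05 in these 4 comparisons. The edgeR quasi-likelihood test called 0, 0, 0 and 1, and DESeq2 called 0, 1, 1 and 0, in the order both sexes, males, females and interaction.

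The sizes of the differences between nPM and control were set beside those of all tested genes. In both sexes together, 6 were higher and 3 lower in nPM, with a median absolute log2 difference of 0.026, against 0.062 over all tested genes. Within a sex the medians were closer to those of all genes, at 0.093 against 0.102 in males and 0.078 against 0.090 in females, and the interaction had 0.135 against 0.148. These comparisons are not matched for level. The median SD within groups was 0.256 on the log2 scale over all tested genes. It was 0.506 for Uhrf1, 0.359 for Dnmt3b and 0.056 to 0.196 for the other members. The intervals set how large a change could have gone unseen. For Mbd1, the 95% confidence interval of the change ran from -4.04% to 7.01%. For Dnmt1 it ran from -9.76% to 6.96%, and for Uhrf1 from -27.6% to 32.2%. The adjusted p was at least 0.963 for each of the 9 genes in the 4 comparisons.

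**Figure D2:**
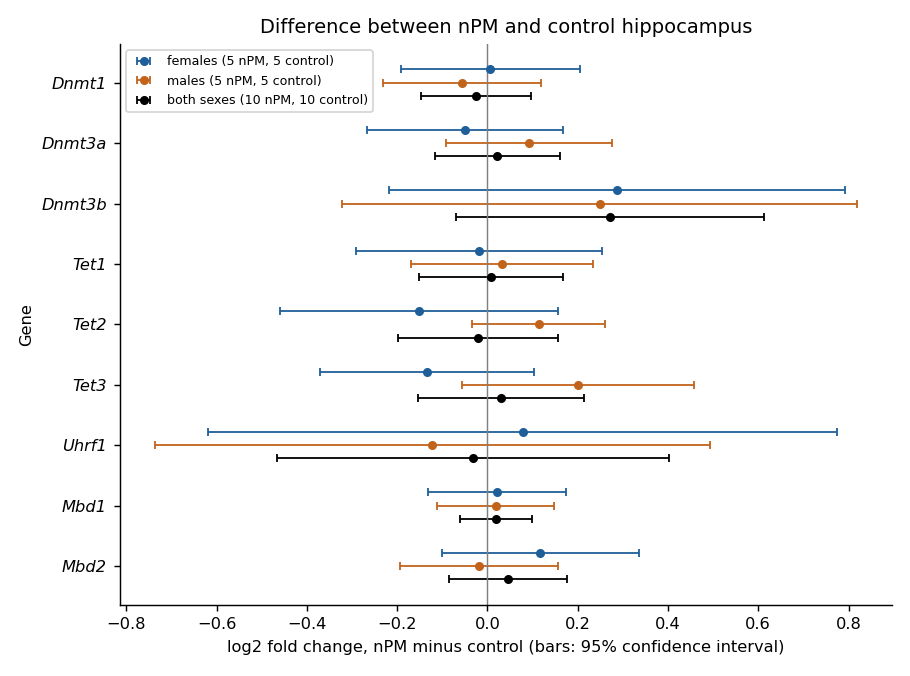
log2 fold change of nPM over control for each gene (x axis) in females, in males and in both sexes with sex as a covariate, with the 95% confidence interval as bars. Every interval includes 0, and the widest are those of the low genes Dnmt3b and Uhrf1.

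Among the writers, Dnmt1 had nearly the same level in all 4 groups. The control female samples held 54.8, 53.1, 44.4, 47.6 and 45.2 CPM and the nPM female samples 43.4, 46.2, 48.8, 54.5 and 53.9 CPM. The control male samples held 57.6, 48.7, 47.5, 48.4 and 45.7 CPM and the nPM male samples 50.4, 42.9, 43.5, 49.8 and 51.3 CPM. The groups overlapped throughout. The log2 difference of nPM from control was -0.03 ± 0.059 (SE, 20 samples) in both sexes, and that of males from females -0.02 ± 0.059 (adjusted p = 0.842 by limma).

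Uhrf1, which brings DNMT1 to sites methylated on one strand, spread most of the 9 genes, with an SD within groups of 0.506 on the log2 scale, against a median of 0.479 in the 200 genes nearest in mean level. Control females held 0.711 to 0.945 CPM and nPM females 0.328 to 1.42 CPM. Control males held 0.664 to 1.28 CPM and nPM males 0.512 to 1.51 CPM, so all groups overlapped. The SD on the log2 scale was 0.76 within nPM females and 0.16 within control females. The extremes of nPM females were nPM female 4 (6 counts) and nPM female 1 (43 counts), the latter being the sample with striatal markers and the highest choroid plexus sum. The part of either in the spread was not tested. Markers of dividing cells, in which Uhrf1 and Dnmt1 are known to be high, were also summed. The 15 genes of that list, of which 13 were tested, summed to 74.3 to 88.3 CPM in control females and 83.0 to 96.4 CPM after nPM. In males they summed to 87.5 to 101 CPM in controls and 91.6 to 106 CPM after nPM. Of the 13, 0 passed 0.005 in any nPM comparison, beside 0.0859% to 0.217% of all tested genes.

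Dnmt3a places new methyl marks and is the main such enzyme of mature neurons. Control females held 86.2, 93.2, 102, 78.9 and 103 CPM and nPM females 81.7, 100.1, 82.5, 81.2 and 101 CPM. Control males held 64.8, 76.1, 72.4, 66.1 and 68.1 CPM and nPM males 81.0, 64.0, 66.3, 79.2 and 81.2 CPM. Females stood higher, without overlap among controls and with an overlap at about 81 CPM among nPM samples. The nPM difference was 0.02 ± 0.066 (log2 ± SE) in both sexes, 0.09 ± 0.084 in males (exact permutation p = 0.302) and -0.05 ± 0.10 in females (exact permutation p = 0.659).

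Dnmt3b, the de novo enzyme best known from the early embryo, was low. Control females held 1.12, 0.916, 1.18, 0.834 and 1.64 CPM and nPM females 1.29, 1.53, 1.14, 1.04 and 1.71 CPM. Control males held 0.633, 0.964, 0.516, 0.548 and 0.837 CPM and nPM males 1.19, 0.576, 0.726, 0.745 and 0.907 CPM. The groups overlapped in part, with males at the lower end. It had the smallest limma p of the 9 genes for nPM in both sexes, 0.112 before adjustment, at a log2 difference of 0.27 ± 0.164 (95% confidence interval of the change -4.67% to 53.0%).

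Among the erasers, Tet3 differed most between the sexes. Control females held 60.0, 93.6, 74.3, 65.8 and 77.3 CPM and nPM females 65.1, 69.0, 68.8, 60.9 and 69.8 CPM. Control males held 35.5, 46.8, 50.2, 41.5 and 42.7 CPM and nPM males 53.2, 38.7, 49.6, 48.6 and 59.3 CPM. All 10 females were above all 10 males. How many of all tested genes separated the sexes in this way was not counted. By limma, 31.1% of them passed p below 0.005 for sex. Under nPM the log2 difference was 0.20 ± 0.118 (exact permutation p = 0.190) in males and -0.13 ± 0.109 (exact permutation p = 0.294) in females. The interaction was 0.33 ± 0.166, with an unadjusted p of 0.0576 by limma, 0.0437 by edgeR and 0.0401 by DESeq2. None passed 0.005. With single samples left out the interaction ran from 0.25 (without control female 2, unadjusted limma p of 0.125) to 0.41 (without nPM male 2, p of 0.0148), the male value from 0.14 to 0.28 and the female value from -0.20 to -0.05.

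Tet2 had a similar pattern with more overlap. Control females held 81.0, 94.7, 117, 78.9 and 104 CPM and nPM females 72.9, 85.5, 71.8, 115 and 85.6 CPM. Control males held 60.2, 62.1, 68.5, 55.5 and 64.2 CPM and nPM males 68.9, 62.4, 65.5, 66.5 and 72.0 CPM. Control males and control females did not overlap, and the nPM sexes overlapped at 71.8 to 72.0 CPM. The nPM difference was 0.11 ± 0.067 (exact permutation p = 0.103) in males and -0.15 ± 0.142 (exact permutation p = 0.357) in females. The interaction was 0.27 ± 0.164, with an unadjusted limma p of 0.121. With single samples left out, the female value ran from -0.25 (without nPM female 4) to -0.07 (without control female 3) and the male value from 0.07 (without control male 4) to 0.15 (without control male 3). The interaction ran from 0.19 to 0.36, the latter without nPM female 4, with a p of 0.0161.

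Tet1, the family member with the fewest reads here, did not share this pattern. Control females held 23.0 to 31.9 CPM and nPM females 21.9 to 33.9 CPM. Control males held 27.8 to 33.0 CPM and nPM males 27.8 to 37.6 CPM, so all groups overlapped. The nPM difference was 0.01 ± 0.077 (log2 ± SE) in both sexes.

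Of the readers, Mbd1 varied least. Mbd1, which represses genes at methylated promoters, lay between 22.6 and 27.7 CPM in all 20 samples. Its SD within groups was 0.056 on the log2 scale, while the 200 genes nearest in mean level had a median SD of 0.163. Mbd2, the methyl-CpG subunit of the NuRD repressor complex, lay between 28.1 and 42.9 CPM. Its nPM difference was 0.05 ± 0.063 in both sexes, and that of Mbd1 0.02 ± 0.038. For Tet3 and Tet2 the SD within groups was 0.196 and 0.194, against 0.142 and 0.144 in their 200 nearest genes.

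**Figure D3:**
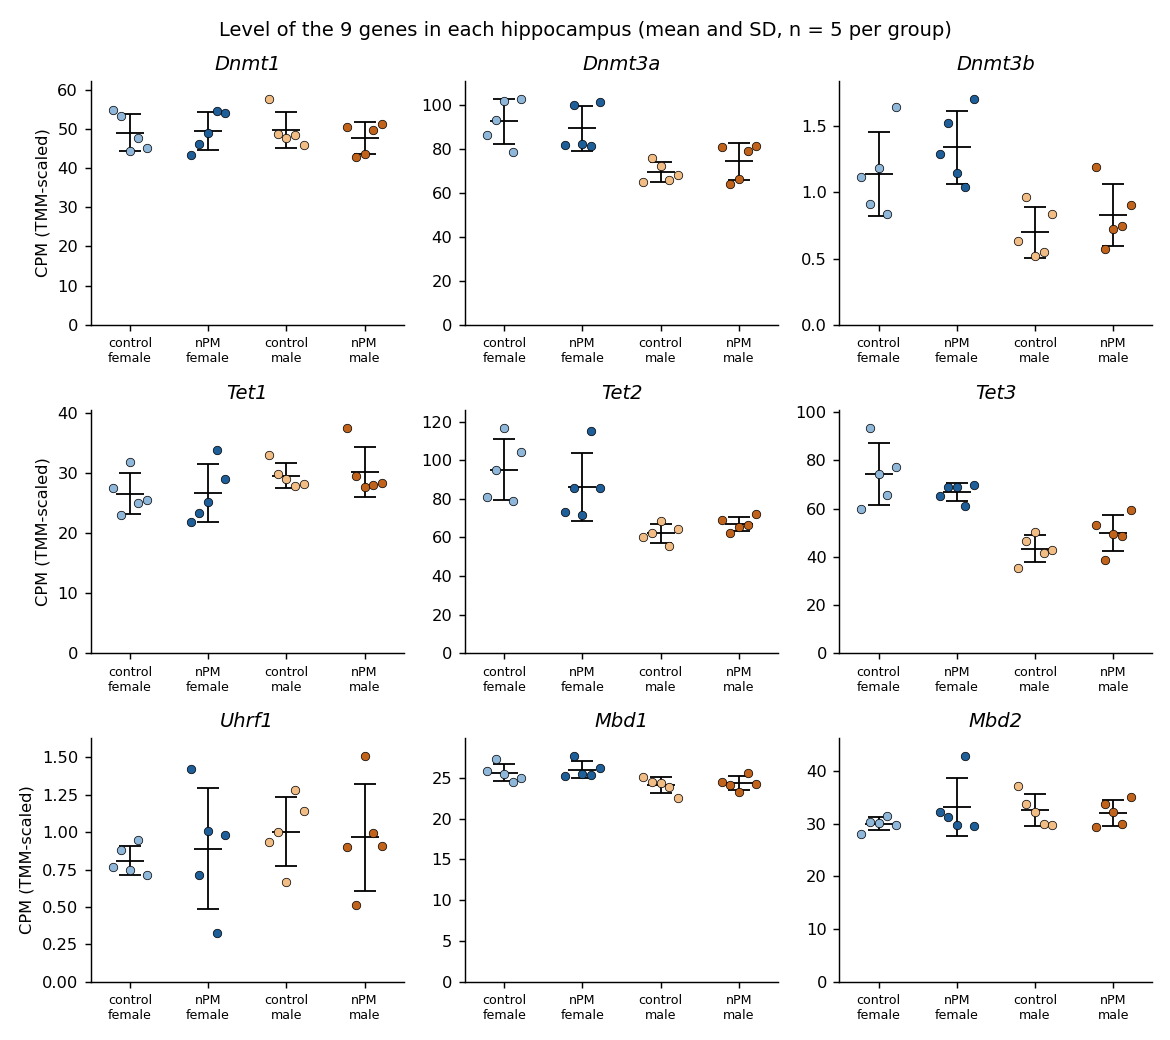
CPM of each gene in every sample, by group, with the mean and SD of 5 samples as the line and bars. For Tet3, control and nPM males at 35.5 to 59.3 CPM lie below all females at 60.0 CPM or more, while the 4 groups of Dnmt1 and those of Mbd2 all overlap.

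Between males and females, 4 of the 9 genes passed p below 0.005 by limma-voom, all 4 lower in males. These were Tet3, Tet2, Dnmt3a and Dnmt3b. The share of 44.4% stands beside 31.1% of all tested genes at this level, of which 17.1% were lower and 13.9% higher in males. At p below 0.05, 6 of 9 passed beside 48.4% of all genes, and at an adjusted p below 0.05 the 4 genes beside 40.4%. A difference between the sexes was thus common in these libraries, and the count of 4 is read against that background.

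Tet3 was 34.0% lower in males (log2 difference -0.60 ± 0.089, adjusted p = 3.59e-05 by limma). The exact two-sided permutation test within each exposure gave p = 0.00794 for Tet3 in controls and again in nPM samples, the smallest that 5 against 5 allows. Tet2 was 27.8% lower (-0.47 ± 0.085, adjusted p = 2.14e-04), with exact p = 0.00794 in controls and 0.0159 in nPM samples. Dnmt3a was 20.8% lower (-0.34 ± 0.066, adjusted p = 4.54e-04), with the same 2 exact p-values. Dnmt3b was 38.0% lower (-0.69 ± 0.165, adjusted p = 0.00218), with exact p = 0.0397 in controls and 0.0238 in nPM samples. The exact values in the text come from 36 tests of 9 genes in 4 comparisons and are not adjusted. Exact tests and overlaps were not computed for the other tested genes. Groups without overlap are thus not shown to be particular to Tet3, Tet2 or Dnmt3a.

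Within exposure groups, the sex difference was -0.77 in controls and -0.43 in nPM samples for Tet3, -0.60 and -0.34 for Tet2, -0.41 and -0.27 for Dnmt3a and -0.69 and -0.71 for Dnmt3b (mean log2 CPM, males minus females). The difference between each pair is the interaction, which none of the 4 passed.

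The other 5 genes did not pass 0.005. Mbd1 was at -0.09 ± 0.038 (adjusted p = 0.0576) and Tet1 at 0.18 ± 0.077 (adjusted p = 0.0740), the latter higher in males and so opposite in sign to Tet2 and Tet3. Uhrf1 was at 0.20 ± 0.210 (adjusted p = 0.482) and Mbd2 at 0.04 ± 0.063 (adjusted p = 0.606).

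The age of the animals moved with sex. With age as a covariate, 0 of 9 genes passed 0.005 by limma. Of all 19797 tested genes 84 did, against 6147 without that covariate. The ages of the sexes do not overlap, so this fit cannot separate age from sex. The log2 difference of Tet3 became -0.17, that of Tet2 0.01 and that of Dnmt3a -0.09, while that of Dnmt3b became -1.17 with an unadjusted p of 0.030. Without the 7 samples with over 1000 CPM of choroid plexus markers, a choice made after the values were seen, Tet2 and Tet3 passed 0.005 and Dnmt3a (-0.25, unadjusted p of 0.0109) and Dnmt3b (-0.60, unadjusted p of 0.0203) did not. Of all 19797 tested genes 3007 passed in that smaller set, against 6147 with all samples.

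Gene length also moved with the sex difference. Over all tested genes the median log2 difference of males from females was 0.08 for the 5387 genes of up to 2 kb of exon and -0.13 for the 426 genes over 14 kb, of which 33.3% were lower and 5.4% higher in males at p below 0.005. Tet2 (16870 bases), Tet3 (16695 bases), Dnmt3a (16642 bases) and Tet1 (14710 bases) belong to that longest class. Genes over 14 kb took 8.89% to 10.2% of the counts of females and 7.73% to 9.26% of those of males. Relative to the median of the 500 genes nearest in length, also a choice made after the values were seen, the log2 difference was -0.49 for Tet3, -0.36 for Tet2, -0.23 for Dnmt3a, -0.71 for Dnmt3b and 0.29 for Tet1. The mitochondrial share of counts, 11.1% to 13.3% in control females and 13.5% to 14.3% in control males, moved with sex among controls, and was 12.1% to 15.7% in nPM females and 11.4% to 13.9% in nPM males. Of the cell type markers, 4 of 8 endothelial genes were lower in males at p below 0.005, with sums of 164 to 234 CPM in females and 130 to 160 CPM in males. Higher in males were 4 of 8 astrocyte genes (sums of 5763 to 6785 and 5234 to 6649 CPM) and 3 of 8 microglial genes (226 to 348 and 294 to 350 CPM). Over all tested genes 17.1% were lower and 13.9% higher in males at this level. The median astrocyte sum was 6574 and 6058 CPM in control and nPM females and 6250 and 6102 CPM in control and nPM males. Dividing cells, immature neurons, dentate granule neurons and oligodendrocytes had 1 gene higher each, and dentate granule neurons also 1 lower. None of the 10 choroid plexus markers passed. The part of length, mitochondrial share or cell types in the difference of the 4 genes was not tested.

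**Figure D4:**
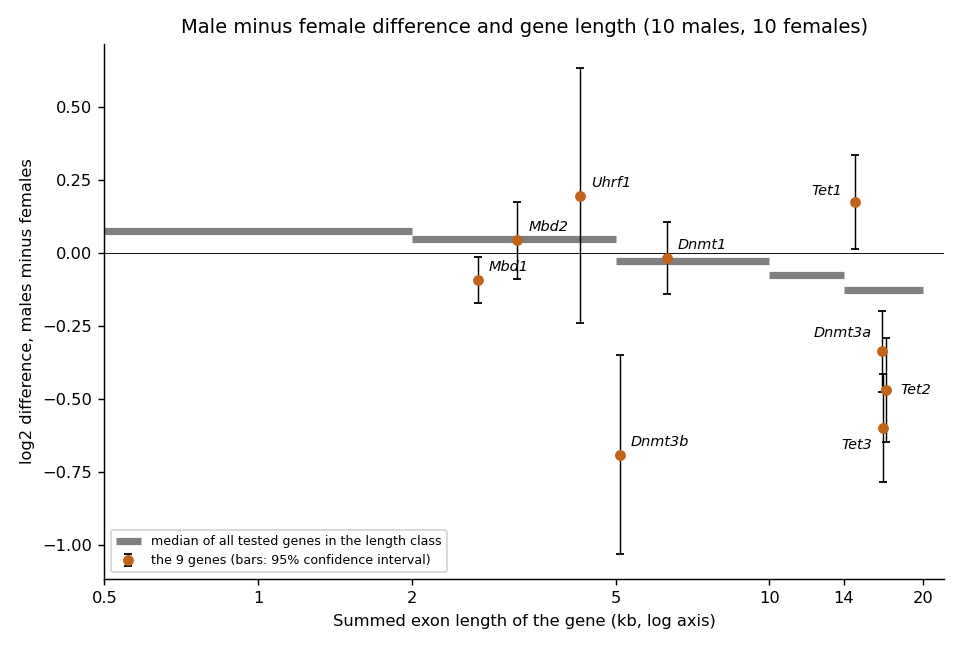
log2 difference of males from females (y axis) against the summed exon length of the gene (kb, log axis) for the 9 genes, with 95% confidence intervals, and the median of all tested genes in 5 length classes as gray bars. The medians fall from 0.08 to -0.13 with length, and Tet3, Tet2 and Dnmt3a lie below the bar of the longest class while Tet1 lies above it.

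A further 5 lists of related genes held 72 members of the pathway, of which 64 were tested. They cover other writers and their cofactors, other readers and their relatives, the demethylation and repair steps after the TET enzymes, the NuRD complex and the supply of the methyl donor. For nPM, 0 of 64 passed 0.005 in any of the 4 comparisons by limma. At 0.05 the counts were 0 in both sexes, 4 in males, 0 in females and 1 for the interaction, beside the 2.10%, 4.28%, 2.00% and 3.79% of all genes given above. Those in males included Mbd6, a relative of MBD2 (log2 difference 0.41 ± 0.138), Idh1, which makes the α-ketoglutarate that TET enzymes use (-0.28 ± 0.108), and Mat2b, a subunit of the enzyme that makes the methyl donor (-0.15). Their unadjusted limma p were 0.0121, 0.0227 and 0.0351, and the adjusted p = 0.963 for each.

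Outside males, the genes with the smallest unadjusted p did not reach 0.05 except for Idh1 in the interaction. In both sexes together they included Mtr, the methionine synthase (0.11 ± 0.063, unadjusted limma p of 0.103). In females they were Neil3, a repair glycosylase with a mean of 8.15 counts (1.02 ± 0.502, p of 0.0650), and Cxxc4 (-0.35 ± 0.186, p of 0.0801). The interaction was smallest for Idh1 (-0.44 ± 0.159, p of 0.0124) and Neil3 (-1.498 ± 0.757, p of 0.0618). Females held 33.8 ± 4.19 CPM of Idh1 (SD, n = 5) as controls and 37.6 ± 5.08 CPM after nPM, and males 55.8 ± 6.61 and 46.0 ± 6.39 CPM.

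By sex, 19 of 64 passed 0.005 by limma, 8 higher and 11 lower in males, a share of 29.7% beside the 31.1% of all genes. NuRD had 6 of 11, 3 in each direction. Its histone-binding subunits Rbbp4 (0.13) and Rbbp7 (0.18) and the deacetylase Hdac2 (0.19) were higher, and Mta1 (-0.49 ± 0.071), Gatad2b (-0.27) and the remodeler Chd4 (-0.15) were lower. Demethylation and repair had 7 of 22. Idh1 (0.50 ± 0.091) and the endonuclease Apex1 (0.27) were higher, and Parp1 (-0.35), the polymerase Polb (-0.33), the glycosylases Neil1 (-0.38) and Neil2 (-0.50) and the deaminase Apobec3 (-0.42) were lower.

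The remaining lists had fewer. Of the 8 tested genes in the list of readers and their relatives, Mbd6 (-0.97 ± 0.171) was lower in males and Zbtb38 (0.18) higher. Of 7 writers and cofactors, Dmap1, which binds DNMT1, was higher (0.20). Of 16 genes of the methyl donor supply, Mat2b (0.28) was higher and Mtr (-0.29) and Cbs (-0.31) were lower. With age as a covariate 0 of the 64 passed, beside 84 of all 19797 tested genes. Without the 7 choroid plexus-rich samples 6 did, beside 3007 of all 19797.

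Within groups, Dnmt3a and Dnmt3b had the highest Pearson correlation of the 36 pairs, although Dnmt3b rested on 14 to 52 counts per sample. After subtraction of the group means, their log2 levels correlated at Pearson r = 0.73 (permutation p = 9.90e-04, adjusted p = 0.0356 over 36 pairs) and Spearman rho = 0.74 (permutation p = 5.50e-04, adjusted p = 0.0198) over 20 samples. Without control female 4 and nPM male 2, the samples farthest from the median of Dnmt3a, r was 0.65. Dnmt3a and Tet3 came next at r = 0.64 (rho = 0.67, permutation p = 0.00446 and 0.00223), with adjusted p of 0.0803 for r and 0.0401 for rho and r = 0.53 without the same samples.

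No other pair of the 36 passed an adjusted p of 0.05 by either measure. Tet2 and Uhrf1 ran in opposite directions at r = -0.60 (permutation p = 0.0112, adjusted 0.135) and r = -0.38 without nPM female 4 and control female 3. Dnmt1 and Uhrf1, whose products act together, were at r = -0.22 (permutation p = 0.426). The part of depth or tissue composition in these correlations was not tested.

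**Figure D5:**
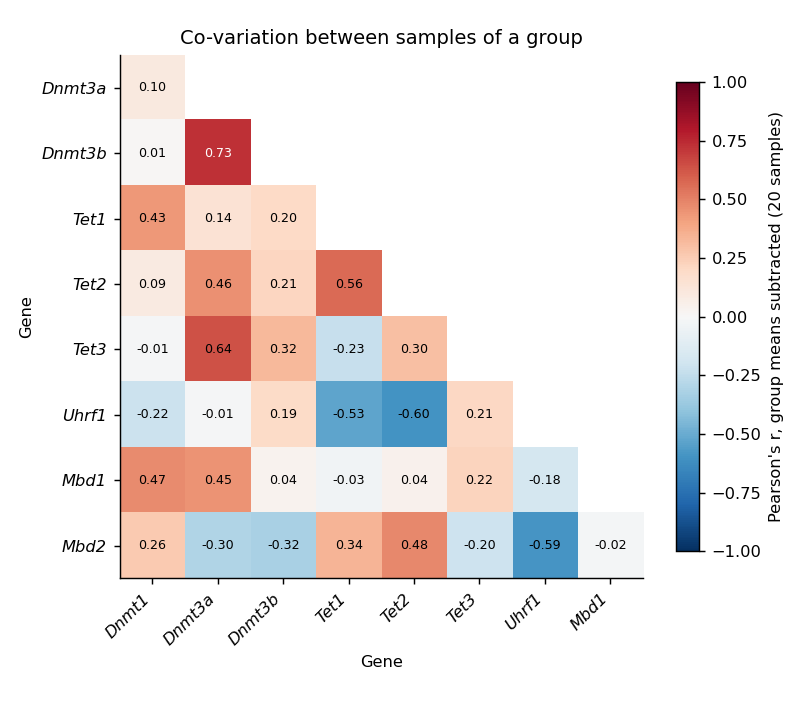
Pearson's r between the log2 levels of each pair of the 9 genes over 20 samples after subtraction of group means (red positive, blue negative). Dnmt3a with Dnmt3b at 0.73 is the highest and Tet2 with Uhrf1 at -0.60 the lowest of the 36 pairs.

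The genes most like each member by the same measure were taken from all tested genes, as a description over 20 samples. Tet2 was most like Mbtd1 (r = 0.92), Tet1 like Ovgp1 (0.91), Dnmt3a like Fam193a (0.89) and Mbd2 like Gm15787 (0.88). Uhrf1 was most like Pigs (0.87), Tet3 like Gm45640 (0.87), Dnmt1 like Prrg3 (0.85), Mbd1 like Adam33 (0.82) and Dnmt3b like Cep164 (0.81). The next were Gm37206 (0.92) for Tet2, Morc4 (0.90) for Tet1, 9530051G07Rik (0.87) for Dnmt3a, Smim27 (0.87) for Mbd2, Ptprf (0.87) for Uhrf1, Arid1a (0.86) for Tet3, Camk1 (0.85) for Dnmt1, Tm9sf4 (0.80) for Mbd1 and Pprc1 (0.79) for Dnmt3b.

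By the deposited map, Tet3 lies on the minus strand of chromosome 6 from 83362373 to 83459084 (mm10), and Tet2 on the minus strand of chromosome 3 from 133463679 to 133545139. Dnmt3a lies on the plus strand of chromosome 12 from 3806007 to 3914443 and Dnmt3b on the plus strand of chromosome 2 from 153649450 to 153687730. Dnmt1, Tet1 and Uhrf1 lie on chromosomes 9, 10 and 17, and both readers on chromosome 18. Tet3 overlaps 5430434F05Rik on its own strand (a mean of 93.5 counts), Mir6374 on its own strand and B230319C09Rik on the other. Dnmt1, Dnmt3a, Dnmt3b, Tet1 and Tet2 each overlap 1 gene with a mean of at most 2.2 counts. Uhrf1, Mbd1 and Mbd2 overlap none. The strand setting of the counting is not given in the sources used here, so reads of such overlaps may be left out of either gene or counted to the wrong one.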

How the data were processed

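Libraries of total RNA were made by the authors with the Illumina RiboZero Gold kit. Per their methods, adapters were trimmed where needed (Trimmomatic), HISAT2 placed the reads on mm10, and gene totals came from featureCounts 1.5.0-p3 with Gencode M11. They deposited whole-number counts per gene for 20 samples, without normalization. A deposited table also gives the length and the mean RPKM of each gene over all samples, and lengths and positions were taken from it. The p-values measure the spread between animals, whose litters are not labelled. Littermates were thus treated as independent, although the exposure was given to the dams.

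From the counts, TMM factors (edgeR 4.0.16) were computed after filterByExpr (minimum count 10, minimum total 15) over the 4 groups, and the limma-voom model (version 3.58.1 under R 4.3.3, offset 0.5) was applied to 19797 genes. The fits were nPM with sex as a covariate, nPM within each sex, their interaction, and sex with exposure as a covariate. CPM were scaled by TMM factors and RPKM were not. Single genes were compared by exact permutation tests, and pairs of genes by 100000 permutations. Alternatives were DESeq2 1.42.0, edgeR's quasi-likelihood test, other normalization, filters, covariates and weights, and each sample left out. The fits were tested on simulated data. Total counts of 19092067 to 38663408 leave counting noise largest for Uhrf1 and Dnmt3b.

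The 9 genes and all lists were chosen with earlier results of these data known. All 9 genes are named. Of the lists, genes past 0.005 in a fit and the 2 with the smallest p in each nPM fit are named, and for each of the 9 the 2 genes with the highest Pearson r. One gene that this rule names is not reported here. No sequence is given for Mbd1 or Mbd2.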

Additional observations from a re-analysis of the deposited data

Results flagged for a closer look

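Of the 36 sets of 5 samples (9 genes in 4 groups), 3 had 1 sample far from the others by Dixon's test. For normally distributed values chance gives about 1 in 20. The share over all tested genes was not counted. Control male 1 held 57.6 CPM of Dnmt1 (gap over range 0.728), and its blood markers summed to 42.9 CPM. nPM male 1 held 37.6 CPM of Tet1 (0.799), and its blood markers summed to 30.0 CPM. nPM female 4, the library with the fewest counts (19092067), held 42.9 CPM of Mbd2 (0.779), the highest Tet1 and Tet2 levels of its group and the lowest Uhrf1 level of all 20 samples. The part of blood or depth in these values was not tested.

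The nPM difference of Idh1 differed between the sexes by -0.44 on the log2 scale (unadjusted limma p of 0.0124, adjusted p = 0.987), males minus females.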

How the results depend on the processing

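For nPM, 0 of 9 genes passed 0.005 in every comparison under every alternative, single samples left out included. The lowest p were 0.0537 in both sexes, 0.0192 in males, 0.0585 in females and 0.0148 for the interaction. For sex, 4 of 9 passed under edgeR, DESeq2, RLE scaling, no filter, quality weights and with each sample left out. Of all 19797 tested genes, 6138 passed under edgeR, 6723 under DESeq2, 6109 under RLE scaling and 6831 with quality weights. Without a filter 6731 of 35001 did. With single samples left out, 5485 (without control female 5) to 6333 (without nPM female 4) of 19797 did. With a filter at a mean of 50 counts, Dnmt3b and Uhrf1 were not tested. Of the members left, 4 passed, with Mbd1 in place of Dnmt3b (unadjusted limma p of 0.00121), beside 4799 of all 14678 genes tested there. With age as a covariate 0 of 9 genes and 0 of the 64 list genes passed, beside 84 of all 19797 tested genes. Without the 7 choroid plexus-rich samples 2 and 6 did, beside 3007 of all 19797. Same-numbered samples of the exposure groups correlated at -0.364 to 0.157, over 0.1 in 3 of 10 pairs, and 0 of 10 controls correlated best with their own number. The check thus showed no pairing by number. It cannot exclude one, because deviations over all genes also carry differences in dissected tissue such as choroid plexus. The replicate block left the counts at 0 for nPM and 4 for sex. With it, 14 of 64 list genes passed for sex, beside 5739 of all 19797 tested genes. The interaction gave 0 to 1 list genes with single samples left out, 1 without control female 4. Ranked by CPM, which is not per length, the order was rank 1 for Dnmt3a, 2 for Tet2, 3 for Tet3, 4 for Dnmt1, 5 for Mbd2, 6 for Tet1, 7 for Mbd1, 8 for Dnmt3b and 9 for Uhrf1.

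Of the values whose sign changed, 1 was a call, the sex difference of Tet2, which went from -0.47 to 0.013 with age as a covariate. The others had no p below 0.005 before or after, and the cause was not tested. In both sexes Tet1 became -0.015 with quality weights, and Uhrf1 0.045 with edgeR, 0.049 with DESeq2 and 0.015 with the replicate block. In females Dnmt1 became -0.0028 with age and -0.035 with weights, Dnmt3a 0.046 with weights, and Tet1 0.0039 with edgeR, 0.014 with DESeq2 and 0.023 with age. For the interaction Dnmt1 became 0.0074 with weights, Dnmt3b 0.0020 with edgeR and 0.019 with the block, and Mbd1 0.0057 without a filter and 0.013 with the filter at 50. For sex with age, Uhrf1 became -0.47. Without the choroid plexus-rich samples, Tet1 became -0.0047, Uhrf1 0.22 and Mbd1 -0.0099 in males, Tet1 0.034 and Uhrf1 -0.28 in females, Dnmt3b 0.49, Tet1 -0.038 and Uhrf1 0.51 for the interaction, and Dnmt1 0.075 for sex. With single samples left out, the ranges in both sexes were -0.046 to 0.0021 (Dnmt1), -0.0036 to 0.046 (Dnmt3a), -0.038 to 0.040 (Tet1), -0.056 to 0.026 (Tet2), -0.010 to 0.082 (Tet3) and -0.13 to 0.080 (Uhrf1). In males they were -0.0067 to 0.039 (Mbd1), -0.055 to 0.029 (Mbd2), -0.061 to 0.072 (Tet1) and -0.30 to 0.060 (Uhrf1). In females they were -0.028 to 0.056 (Dnmt1), -0.00034 to 0.043 (Mbd1), -0.084 to 0.055 (Tet1) and -0.12 to 0.34 (Uhrf1). For the interaction they were -0.20 to 0.072 (Dnmt3b), -0.027 to 0.018 (Mbd1) and -0.046 to 0.12 (Tet1), and for sex -0.044 to 0.0067 (Dnmt1).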
